A study of Homo sapiens with 6 samples.

Results

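*GATA4*, *GATA6*, *SOX2* and *TP63* encode transcription factors of the foregut and of squamous epithelium, and their folding was read from Hi-C maps of 4 cancer cell lines. The members were taken by name, as the 40-kb bins that overlap each gene and the bins within 1 Mb on either side. They are 4 of 19222 protein-coding autosomal genes, overlap 14 of 75918 bins, and have 214 bins in their windows, of which 192 were usable in all lines. Hi-C joins and sequences DNA fragments that lie close together in the nucleus, so that each read pair is a contact between a pair of positions. The lines are OE33 (esophageal adenocarcinoma), SW480 and SNU-C1 (both from colon cancer) and HCC1954 (breast cancer), all untreated as far as the labels say, and the series is about disruption of folding domains by rearrangements in cancer. The methods speak of Hi-C in duplicate, and whether the single maps of OE33, SNU-C1 and HCC1954 pool duplicates is not given, while SW480 had replicate 1, replicate 2 and a map without a number that pools them. Each line is a single culture model of 1 tumour type, so tissue of origin and cell line cannot be told apart. Expression was not measured in these maps.

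GATA4 and GATA6 are zinc finger factors that bind GATA motifs and act in early endoderm, in the heart and in the epithelium of the stomach and intestine, and both genes are often amplified in adenocarcinoma of the esophagus and stomach. SOX2 is an HMG-box factor of the foregut and of stem cells, and TP63 encodes p63, a p53 relative that basal cells of squamous epithelia need. In squamous cancers *SOX2* and *TP63*, which share the long arm of chromosome 3, are commonly gained together. A compartment separates active, gene-dense chromatin from inactive chromatin along a chromosome, and a TAD (topologically associating domain) is a stretch whose sequences contact each other more than their surroundings, with a dip of insulation at each end.

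The starts define the bin from which every contact below was measured. In hg19 (GRCh37), *GATA6* (ENSG00000141448) occupied chr18:19749550-19782491, *SOX2* (ENSG00000181449) chr3:181429713-181432224 and *TP63* (ENSG00000073282) chr3:189349178-189615065, all on the plus strand. *TP63* has 2 groups of starts, the upstream one for the long forms and one inside the gene for the ΔN forms, which lack the N-terminal transactivation domain. The 200 bases before the starts on chromosomes 3 and 18 are shown to set these starts apart by base composition, plus strand, 5′ to 3′, with each CG step in capitals. They cover chr18:19749350-19749549, chr3:181429513-181429712, chr3:189348978-189349177 and chr3:189507248-189507447, in this order.
GATA6: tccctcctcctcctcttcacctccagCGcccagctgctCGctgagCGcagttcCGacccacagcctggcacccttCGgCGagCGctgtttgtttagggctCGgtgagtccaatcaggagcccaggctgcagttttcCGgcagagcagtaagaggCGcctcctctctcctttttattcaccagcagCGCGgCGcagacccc
SOX2: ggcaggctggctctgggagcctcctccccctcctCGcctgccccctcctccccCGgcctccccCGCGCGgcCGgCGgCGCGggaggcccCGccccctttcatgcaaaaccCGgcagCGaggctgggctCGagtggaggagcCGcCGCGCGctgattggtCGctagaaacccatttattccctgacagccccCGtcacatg
TP63, long forms: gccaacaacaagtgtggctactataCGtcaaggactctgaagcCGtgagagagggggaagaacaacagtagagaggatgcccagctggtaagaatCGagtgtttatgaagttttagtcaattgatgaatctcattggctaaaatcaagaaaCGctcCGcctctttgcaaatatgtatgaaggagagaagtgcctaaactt
TP63, ΔN forms: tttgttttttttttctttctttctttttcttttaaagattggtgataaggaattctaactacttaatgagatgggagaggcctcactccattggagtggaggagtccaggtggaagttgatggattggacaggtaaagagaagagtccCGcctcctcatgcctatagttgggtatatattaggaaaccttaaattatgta

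The GATA6 sequence held 13 CG steps and the SOX2 sequence 19, against 5 before the upstream *TP63* start and 1 before the ΔN start. Of 1349 windows of this length before protein-coding starts on chromosomes 3 and 18, 95% held CG, with a median of 13. GATC, the sequence cut by MboI in these experiments, was in none of the 4 sequences and in 27.9% of the 1349. Exons of noncoding transcripts overlapped the *GATA6* sequence (*GATA6-AS1*) and the *SOX2* sequence.

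Depth within chromosomes was 89357280 read pairs in OE33, 93324968 in HCC1954, 115014329 in SNU-C1 and 133374120 in SW480 (65989888 and 67372938 in its replicates). All 52 bins of the *GATA6* window, 51 of *SOX2* and 58 of *TP63* were usable, against 31 of 53 for *GATA4* (ENSG00000136574; chr8:11534468-11617511, plus strand), whose unmeasured bins lie mainly downstream, among the defensin genes. With 1 map per line there was no test across samples, and intervals given below are exact 95% Poisson intervals of read pairs that cover counting error only. The spread between maps of a line is known only for SW480. The SW480 maps also differ in form from the rest. The pooled one lists 69833 contacts of a bin with itself, and each other line lists 0. Pairs between chromosomes are 0.216% of its read pairs, while elsewhere they range from 14.8% (SNU-C1) to 36.6% (OE33). A difference of SW480 from the other lines cannot be told apart from this difference in form. Its part in the calls of SW480 below was not tested.

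In the compartment analysis, *GATA6* and *GATA4* had positive values in every line, though the sign of each turned in some lines under other settings, and *SOX2* and *TP63* varied between lines. The compartment value of a 200-kb block is given in SDs of its chromosome, with gene-dense chromatin positive. Over 17272 genes, replicates of SW480 differed by a median of 0.07 and by 0.267 at the 95th percentile. A line was called when it lay at least 0.5 beyond the nearest of the other 3, and by this rule 0 of 4 members were called in OE33. Of all genes, 0.938% were called higher in OE33 and 1.07% lower.

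For *GATA4*, values were 1.23 in OE33, 1.07 in SW480 (1.03 and 0.954 in its replicates), 0.571 in SNU-C1 and 0.651 in HCC1954. OE33 and SW480 were above SNU-C1 and HCC1954, but the difference of OE33 from SW480 was smaller than the 95th percentile between replicates. The block next to it downstream, which starts at *C8orf49* and *NEIL2*, had 1.28, 1.43, 1.37 and 1.57 in the same order, so the lines that were low at *GATA4* were not low there. With each chromosome arm analysed on its own *GATA4* was -0.242 in SNU-C1 and -0.303 in HCC1954, and without iterative correction it was -0.0672 in HCC1954. *GATA6* gave 1.47, 1.4, 1.64 and 1.38, at or above the 91.5th percentile of genes in each line. The SW480 replicates had 1.28 and 1.39, at percentiles 81.5 and 90.5. In all 11 blocks within 1 Mb of *GATA6* the values of the 4 lines were positive. With bins under 0.5 of the median coverage left out, however, its block was -0.467 in SW480, 0.263 in OE33, 0.576 in HCC1954 and 1.02 in SNU-C1.

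The block of *SOX2* had 0.618 in OE33, 0.00481 in SW480 (-0.054 and 0.0267), -0.526 in SNU-C1 and 0.467 in HCC1954. SNU-C1 was called lower than each other line, as were 2.96% of genes in that line, and the call was lost without SW480 replicate 2 (-0.472 from the nearest line) and with 400-kb blocks. These larger blocks gave 0.0602 in OE33, -0.661 in SW480, -0.632 in SNU-C1 and -0.238 in HCC1954, so HCC1954 turned negative. *SOX2* sat at a step. The block upstream of it was negative in every line, at -0.325 in OE33, -1.01 in SW480, -0.918 in SNU-C1 and -0.778 in HCC1954. The 4 blocks downstream, a stretch without protein-coding starts, were 0.687 to 0.922 in OE33 and 0.309 to 0.603 in HCC1954, while SNU-C1 stayed between -0.778 and 0.0236. SW480 ran from -0.145 to 0.231 there. At 1 Mb downstream all 4 lines were positive again, between 0.768 and 1.03.

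*TP63* had 0.668 in OE33, -0.00959 in SW480 (-0.0945 and 0.0525), 1.17 in SNU-C1 and 1.15 in HCC1954. SW480 was called lower than the other 3, as were 4.29% of genes in SW480, and it stood -0.678 from the nearest line. The call was lost when each chromosome arm was analysed on its own (-0.469) and when the value was taken from contacts with blocks of constant sign (-0.487). SW480 was the lowest of the 4 in each of the 11 blocks. OE33 was flatter than SNU-C1 and HCC1954 here, between 0.579 and 1.01 over the window. *TPRG1*, the neighbour upstream, started in a block with 0.907 in OE33, -0.121 in SW480, 0.589 in SNU-C1 and 0.778 in HCC1954.

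**Figure D1:**
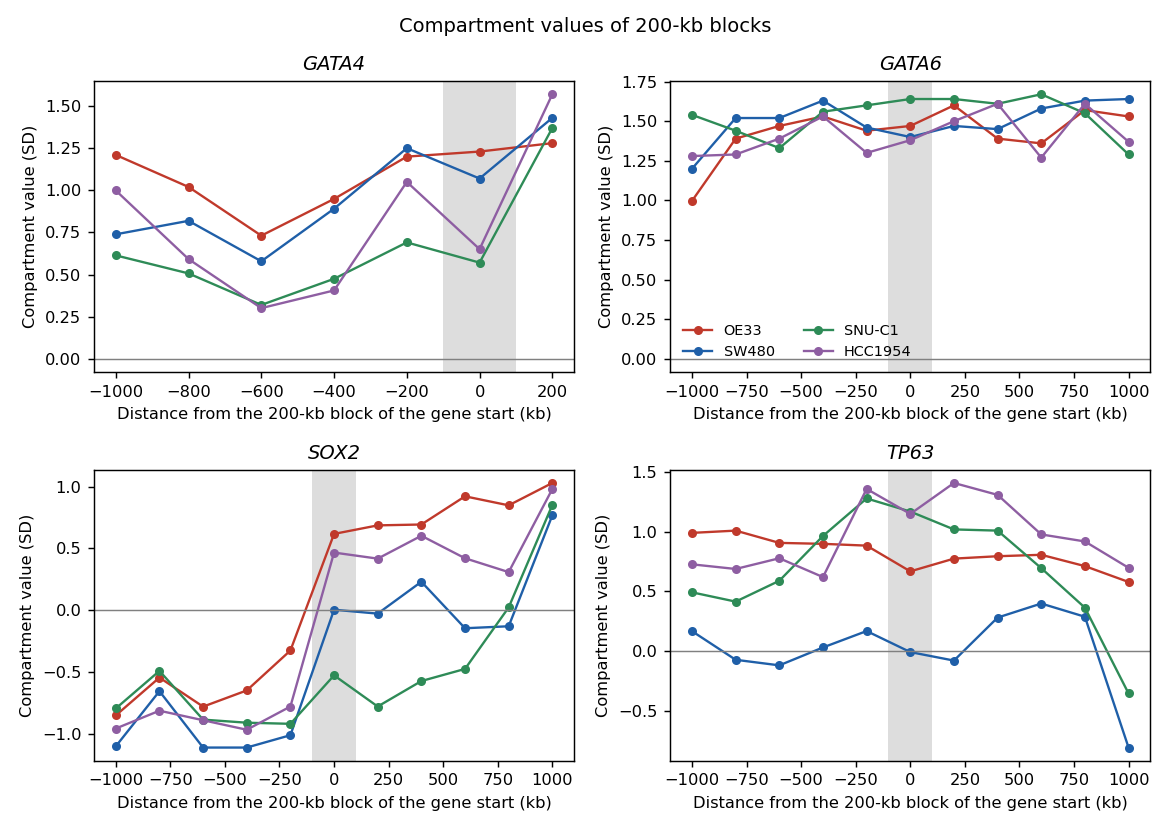
Compartment values of 200-kb blocks (y axis, SD of the chromosome) against distance from the block of the gene start (x axis, kb), 1 line per cell line, with the block of the gene shaded. All lines are positive around *GATA6* (SW480 is -0.467 at the gene with bins under 0.5 of the median coverage left out), the block of *SOX2* begins a stretch in which OE33 and HCC1954 are positive (HCC1954 is -0.238 at the gene with 400-kb blocks) and SNU-C1 is mostly negative, and SW480 is the lowest at *TP63* (-0.00959).

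Insulation scores describe how freely contacts cross a bin. The score is the log2 of the mean contact between the 1 Mb on each side, over the chromosome's mean, so that a low score marks a boundary. *GATA4* could not be scored with this window because fewer than 50% of the bin pairs around it were usable. With a 480-kb window it had 0.732 in OE33, 0.809 in SW480, 0.731 in SNU-C1 and 1.09 in HCC1954, all above 0. The nearest upstream minimum with that window lay 360 kb away in OE33 (-0.24), 320 kb in SW480 (-0.433), 560 kb in SNU-C1 (-0.0735) and 400 kb in HCC1954 (-0.0106).

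OE33 was lower than each other line by at least 0.2 at *GATA6* and *SOX2*, 2 of the 3 members scored, and not at *TP63*. The same was true of 28.5% of all genes in OE33, and 2.77% were higher. Without iterative correction the split turned to 10.3% lower and 19.3% higher. The median over genes was -0.519 in OE33, against -0.275 in SW480, -0.343 in SNU-C1 and -0.378 in HCC1954. After each map was centred on that median, OE33 was -0.0955 from the nearest line at *GATA6* and -0.0974 at *SOX2*, and neither was called, with 10.6% of genes lower and 11.6% higher. A low score in OE33 was thus shared with many genes.

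*GATA6* had -0.125 in OE33, 0.457 in SW480 (0.455 and 0.459), 0.147 in SNU-C1 and 0.176 in HCC1954. SW480 was called higher, as were 11.9% of genes in that line, and this call too was lost with centring, at 0.178 from the nearest line. It was also lost with bins under 0.5 of the median coverage left out (0.116) and without iterative correction, where OE33 had 1.22 and SW480 1.06. A minimum of the score lay 280 kb upstream in every map, at the 3′ end of *MIB1*, a ubiquitin ligase of Notch signalling, with -0.644 in OE33, -0.113 in SW480, -0.473 in SNU-C1 and -0.503 in HCC1954. On the other side the nearest called minimum fell in *RBBP8*, a DNA repair gene. It lay 640 kb downstream in SW480 and HCC1954 and 840 kb downstream in OE33 and SNU-C1. The scores of OE33 and SNU-C1 also dipped at 640 kb, to -0.811 and -0.346, against -0.799 and -0.363 at 840 kb. With the 480-kb window the called minimum was 640 kb away in all 4 lines. The gene thus lay in the same interval of about the same extent in each.

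*SOX2* had -0.459 in OE33, 0.0501 in SW480 (0.0571 and 0.042), 0.185 in SNU-C1 and -0.22 in HCC1954. In OE33 the bin of the gene, chr3:181400001-181440000, was itself a minimum, with a strength of 0.577, the rise and fall of the slope around it. No minimum was called at that bin in the other lines with the 1-Mb window, and HCC1954 had 1 at 120 kb upstream. Even so, their scores at that bin were below those of the bins on either side. These neighbours had -0.184 and -0.0251 in HCC1954, 0.0652 and 0.19 in SW480 and 0.2 and 0.29 in SNU-C1. With the 480-kb window, chosen for minima after the data were seen, the bin of *SOX2* was a minimum in every map. It was deepest in HCC1954 (-0.855) and OE33 (-0.789), followed by SW480 (-0.658), and shallow in SNU-C1 (-0.138). SNU-C1 was thus the line with the weakest dip at *SOX2* and, in 200-kb but not 400-kb blocks, the lowest compartment value there.

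*TP63* had 0.236 in OE33, 0.337 in SW480 (0.329 and 0.345), 0.461 in SNU-C1 and 0.169 in HCC1954. These placed it at or above the 90.4th percentile of genes in each line, away from boundaries. A minimum 400 kb upstream, in *TPRG1*, was found in every map, from -0.909 in HCC1954 to -0.41 in SNU-C1. Past the 3′ end, 320 kb from the start bin, in *P3H2*, which encodes a prolyl hydroxylase of collagen, a minimum was called in SW480, SNU-C1 and HCC1954 but not in OE33. The score of OE33 still dipped at that bin, to -0.227, against -0.206 in SW480, -0.373 in SNU-C1 and -0.39 in HCC1954. With the 480-kb window a minimum was called there in OE33 as well, but at -0.28. The other lines then had -0.803 in SW480, -0.652 in SNU-C1 and -0.559 in HCC1954.

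**Figure D2:**
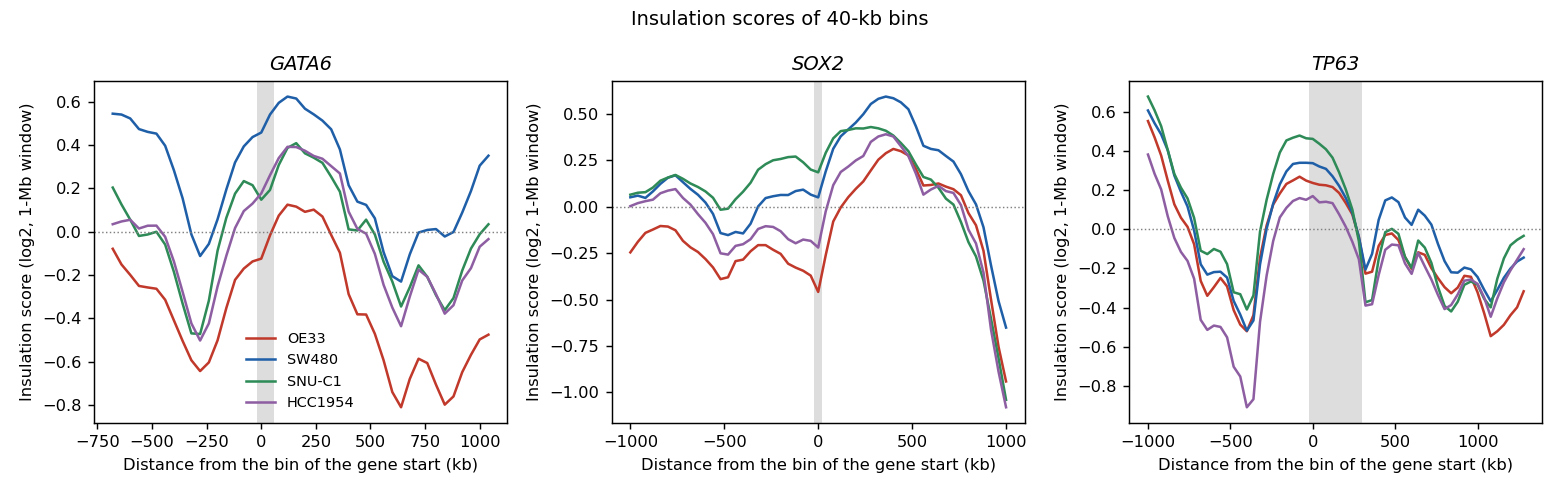
Insulation scores of 40-kb bins (y axis, log2, 1-Mb window) against distance from the start bin (x axis, kb), 1 line per cell line, with the bins of the gene shaded and *GATA4* left out because it could not be scored. OE33 runs below the other lines around *GATA6* and from 1000 kb upstream of *SOX2* to 440 kb downstream, with a local minimum at the *SOX2* bin (-0.459), while *TP63* sits between the dip in *TPRG1* and the one beyond its 3′ end.

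Contacts of the start bins with their flanks were above expectation in most lines, with *GATA4* in SW480 below it and an interval for *TP63* in HCC1954 that included 1. The O/E is the observed over the expected contact from 80 kb to 1 Mb on both sides, where the expected value is the mean over all autosomal bin pairs of that map equally far apart. In OE33 0 of 4 members were called, which took a ratio of at least 25% above the nearest line or the inverse below it, against 0.594% of genes called higher and 16.3% lower (20.3% and 6.64% without iterative correction). The median over genes was 0.876 in OE33 and 1.02 in SW480.

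*SOX2* had an O/E of 1.47 (1.41 to 1.53; 2393 read pairs) in OE33, 1.49 (1.44 to 1.54) in SW480, 1.35 (1.3 to 1.4) in SNU-C1 and 1.46 (1.41 to 1.52) in HCC1954. In each line this was at or above the 97.5th percentile of genes, and at the 97th in SW480 replicate 2. Downstream contacts outnumbered upstream ones relative to expectation, with 1.65 against 1.28 in OE33 and 1.60 against 1.10 in SNU-C1. The strongest contact of the *SOX2* bin was the same in every line, 960 kb downstream at chr3:182360001-182400000, where no protein-coding gene lies. Its O/E over 3 by 3 bins was 3.59 (3.21 to 3.99) in OE33, 4.22 (3.89 to 4.58) in SW480, 3.41 (3.09 to 3.75) in SNU-C1 and 3.78 (3.45 to 4.13) in HCC1954. The next bin, 1000 kb from *SOX2*, was a called minimum of insulation in SW480 (-0.651), SNU-C1 (-1.04) and HCC1954 (-1.08). OE33 also had a low score there, at -0.941, but its next called minimum was 1360 kb away. A second rise 560 kb downstream reached 2.11, 2.71, 2.22 and 2.54 in the order OE33, SW480, SNU-C1 and HCC1954.

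*GATA6* had 1.31 (1795 read pairs) in OE33, 1.2 (2946 read pairs) in SW480, 1.39 (1.33 to 1.46) in SNU-C1 and 1.28 (1.22 to 1.35) in HCC1954. The order of the lines depended on the setting. With the expectation of the same chromosome it was 1.13, 1.45, 1.28 and 1.19 in that sequence of lines, and without iterative correction 1.43, 1.58, 1.13 and 1.12. Both sides differed between lines. Upstream, SNU-C1 had 1.5 (1.41 to 1.60), and OE33 1.02, SW480 0.974 and HCC1954 0.936 (0.855 to 1.02). Downstream, SNU-C1 was the lowest with 1.29 (1.21 to 1.37), against 1.60 in OE33, 1.43 in SW480 and 1.63 in HCC1954. The rise of SNU-C1 upstream centred 200 kb from the gene, between *MIB1* and *GATA6*, with 2.18 (2.06 to 2.32; 1131 read pairs), where OE33 had 1.46, HCC1954 1.45 and the SW480 replicates 1.19 and 1.3. In the other lines the strongest contact was downstream instead, 440 kb away in OE33 (2.32), 360 kb in SW480 (1.95) and 400 kb in HCC1954 (2.19), in bins without a protein-coding gene.

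*TP63* had 1.31 (1838 read pairs) in OE33, 1.16 (1.12 to 1.2) in both SW480 and SNU-C1, and 0.977 (0.942 to 1.01) in HCC1954. Without iterative correction the order turned over, with 1.46 in OE33, 1.62 in SW480, 1.57 in SNU-C1 and 2.13 in HCC1954. In the corrected maps the interval of OE33 lay above those of the others, but by less than 25%. The strongest contact was with *TPRG1* in every line, 360 kb upstream in OE33 (2.26) and 320 kb upstream in SW480 (2.18), SNU-C1 (2.11) and HCC1954 (2.13), next to the upstream minimum. For the gene as a whole the lines parted downstream. The whole gene with the 400 kb after it, a comparison chosen after the profiles were seen, had 0.921 (0.889 to 0.954) in OE33, 0.635 (0.616 to 0.655) in SW480, 0.732 (0.710 to 0.755) in SNU-C1 and 0.796 (0.778 to 0.814) in HCC1954. With the 400 kb before it, the values were 1.56, 1.60, 1.61 and 1.53, so by this measure the gene contacted its upstream flank about alike in the 4 lines. From the start bin, over 80 kb to 1 Mb, the lines parted on both sides. Upstream it had 1.37 (1.29 to 1.46) in OE33, 1.24 in SW480, 1.22 in SNU-C1 and 1.05 (0.998 to 1.11) in HCC1954. Downstream it had 1.24, 1.08, 1.1 and 0.903 in the same order. The start bin itself, at 560 kb downstream, had 1.34 in OE33 and 0.843 to 0.892 in the others. The bins of the upstream and ΔN starts contacted each other at 1.23 (0.981 to 1.53) in OE33, 1.19 (1 to 1.4) in SW480, 1.11 (0.927 to 1.32) in SNU-C1 and 0.961 (0.819 to 1.12) in HCC1954, and these intervals overlapped.

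*GATA4* had 1.19 (1.12 to 1.27) in OE33, 0.908 (0.844 to 0.976) in SW480, 1.17 (1.08 to 1.27) in SNU-C1 and a value with the interval 1.1 to 1.41 in HCC1954. SW480 was called lower, with 0.775 of the nearest line, as were 2.3% of genes in that line. Its replicates gave 0.906 and 0.972, and with replicate 2 alone the ratio was 0.829 and the call was lost. It was also lost with the expectation of the same chromosome (0.863) and with flanks from 200 kb (0.848). Without iterative correction SW480 had 0.563, above SNU-C1 with 0.451 and HCC1954 with 0.273. The start bin lies at the alternative upstream start, and the canonical start lies in the next 40-kb bin. Bins this close were left out of the O/E with flanks. These adjacent bins contacted each other at 1.47 (1.31 to 1.65) in OE33, 0.99 (0.854 to 1.14) in SW480, 1.32 (1.13 to 1.52) in SNU-C1 and 1.60 (1.29 to 1.95) in HCC1954. SW480 was again the lowest, with an interval apart from those of OE33 and HCC1954. This value shares its start bin and map with the O/E with flanks, so it is not separate evidence of a low value in SW480.

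No single contact within 1 Mb of a member was called in OE33 (0 of 4 members; 1.5% of genes had such a contact). A call needed an O/E of at least 1.5, a ratio of at least 1.5 to the highest other line after 0.5 was added to each, and 10 read pairs. The highest ratio of OE33 to the other lines was 1.34, for *TP63* at 600 kb downstream (1.32 against 0.853), and it was 1.09 for both *GATA4* and *GATA6* and 1.05 for *SOX2*. In SNU-C1 no contact of a member was called either, against 1.39% of genes. Its ratio upstream of *GATA6* was 1.37 at 200 kb and 1.42 at 240 kb.

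**Figure D3:**
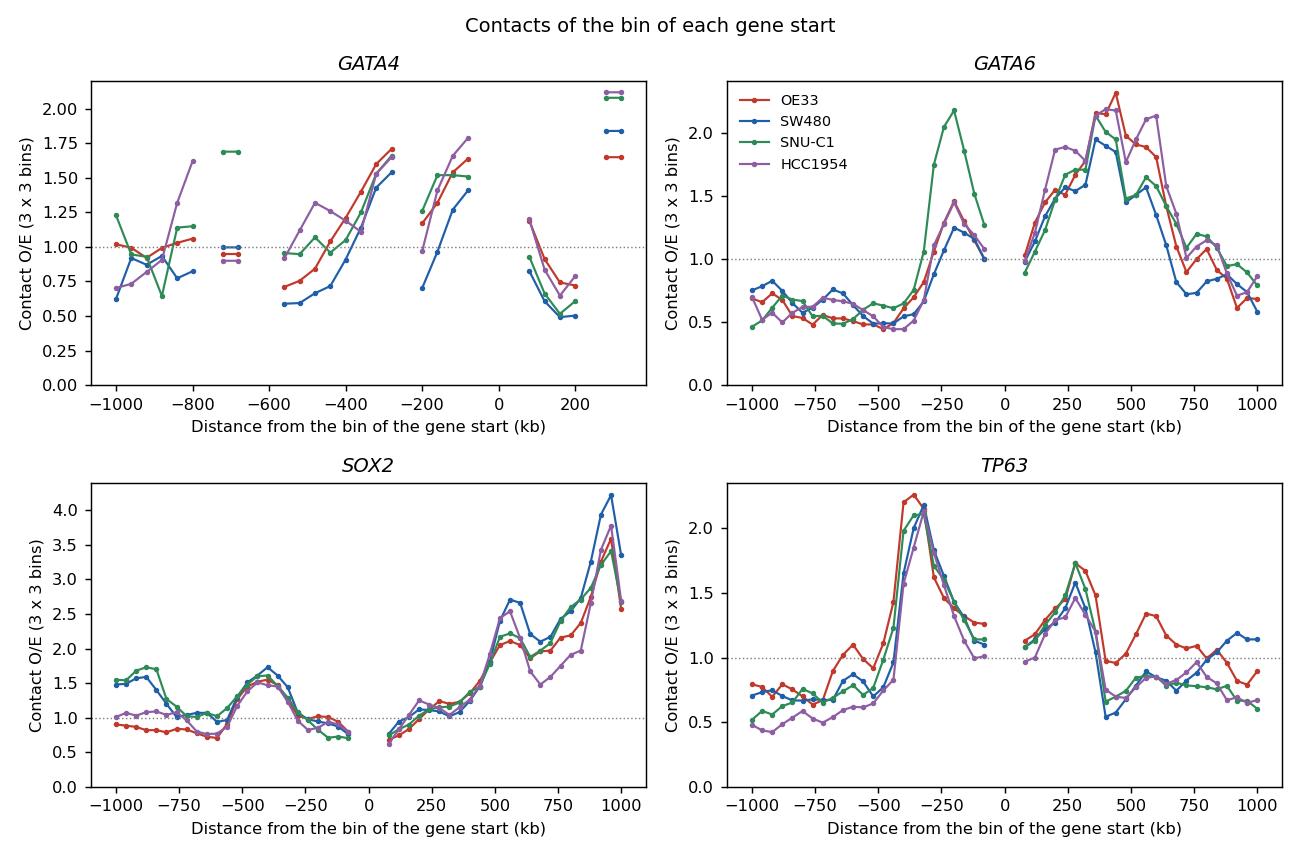
Contact O/E of the start bin of each gene, summed over 3 by 3 bins (y axis), against distance (x axis, kb), 1 line per cell line, with gaps where bins were not usable. *SOX2* peaks 960 kb downstream in all 4 lines (3.41 to 4.22). SNU-C1 is the highest line 200 kb upstream of *GATA6* (2.18), below the ratio needed for a call. OE33 lies above the other lines from 320 to 840 kb downstream of the *TP63* start, with SW480 the highest from 880 kb on.

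*SOX2* and *TP63* lie 7.92 Mb apart on chromosome 3. Their 200-kb blocks contacted each other at an O/E of 1.13 (0.723 to 1.68; 24 read pairs) in OE33, 1.47 (1.07 to 1.96; 46) in SW480, 0.601 (0.320 to 1.03; 13) in SNU-C1 and 0.952 (0.628 to 1.39; 27) in HCC1954. The replicates of SW480 gave 1.73 (1.14 to 2.52) and 1.2 (0.724 to 1.88). The intervals of SW480 and SNU-C1 did not overlap, and the interval of OE33 overlapped that of each other line. With 400-kb blocks OE33 had 1.24 (1.01 to 1.51) and SNU-C1 0.647 (0.487 to 0.842), which did not overlap. Over the windows of 1 Mb on either side, with 1927 to 5069 read pairs, the O/E was 1.04 (0.994 to 1.08) in OE33, 1.35 (1.31 to 1.39) in SW480, 0.788 (0.753 to 0.824) in SNU-C1 and 1.71 (1.67 to 1.76) in HCC1954. In OE33 the neighbourhoods of the pair thus met about as often as any regions at that distance.

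Coverage varied more between lines at *GATA4* and *TP63* than at the other members. It is the read pairs of a bin with other bins of its chromosome, over the autosomal median of the line. It is given as the median over the gene and 1 Mb on either side. Pairs between chromosomes were not counted. In OE33 they made up 48.5% of the *GATA6* window, against 36.5% over the autosomes. Copy number, mappability, the visibility of a bin to MboI and the share of pairs left out all enter coverage and cannot be told apart here. At the threshold of 1.5 times beyond the nearest line, 0 of 4 members were called in OE33, against 11% of genes higher and 1.58% lower.

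At *GATA4* it was 0.956 in OE33, 0.746 in SW480, 0.535 in SNU-C1 and 0.363 in HCC1954, the highest in OE33. The replicates of SW480 had 0.746 and 0.743, so the lines were further apart than replicates, which differed by 1.04 times at the 95th percentile of genes. *GATA6* had 0.911 in OE33, 1.22 in SW480, 0.812 in SNU-C1 and 1.01 in HCC1954. In the bins of the genes themselves OE33 had 0.906, 1.18 and 1.06 for *GATA4* and 1.03 and 1.01 for *GATA6*.

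*SOX2* had 1.19 in OE33, 1.34 in SW480, 1.28 in SNU-C1 and 1.42 in HCC1954, and *TP63* 1.41, 1.78, 1.51 and 2.18 in the same order. OE33 was the lowest of the 4 lines at both. In HCC1954 the bins of *TP63* ranged from 2.07 to 3.63, and the bin in *P3H2* with the downstream minimum had 4.09, against 1.61 in OE33, 2.00 in SW480 and 1.90 in SNU-C1. HCC1954, with the highest coverage, had the lowest O/E of *TP63* with its flanks in the corrected maps and the highest without correction. The part of coverage in that O/E was not tested.

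**Figure D4:**
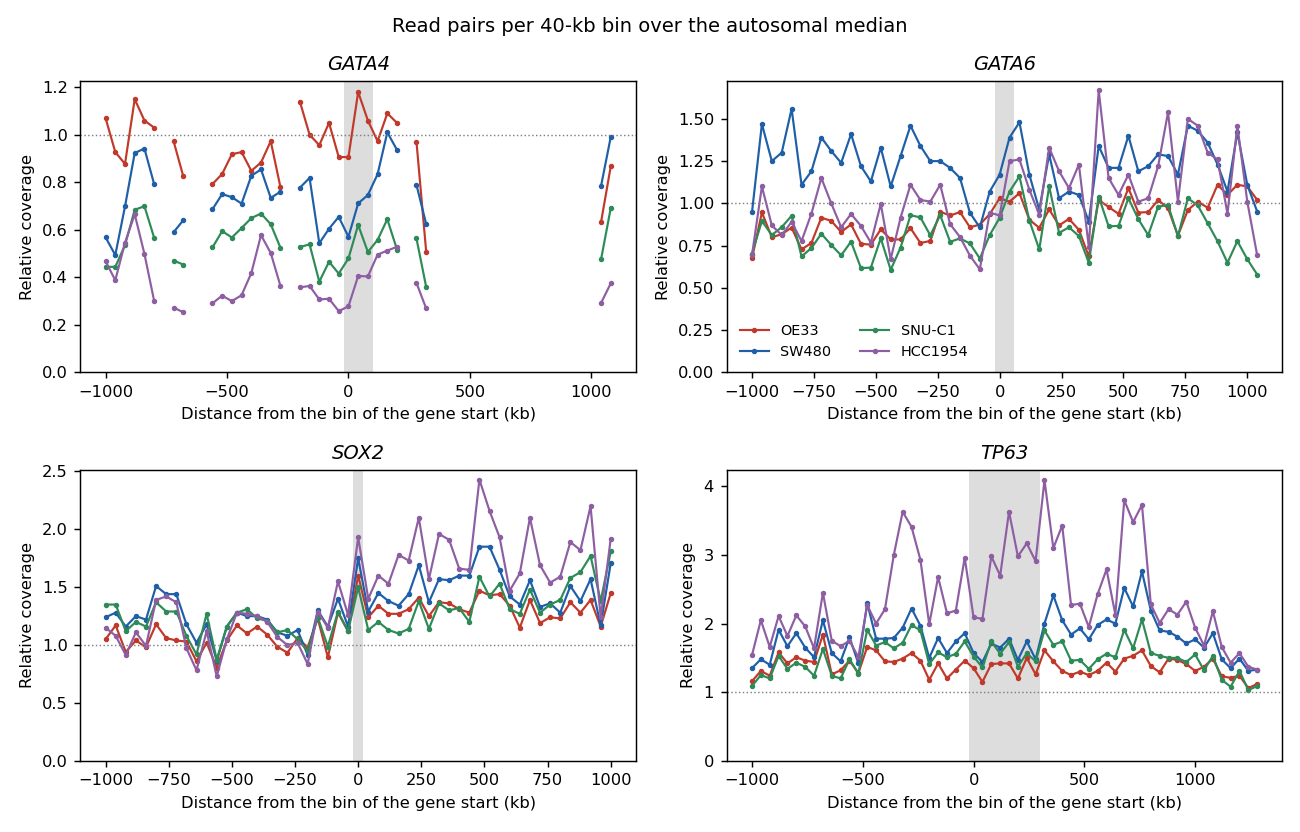
Relative coverage of 40-kb bins (y axis, autosomal median = 1) against distance from the start bin (x axis, kb), 1 line per cell line, with the bins of the gene shaded and unusable bins left out. OE33 is the highest at *GATA4* (0.956 over the window) and HCC1954 at *TP63* (2.18), while OE33 is the lowest at *TP63* (1.41).

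**Figure D5:**
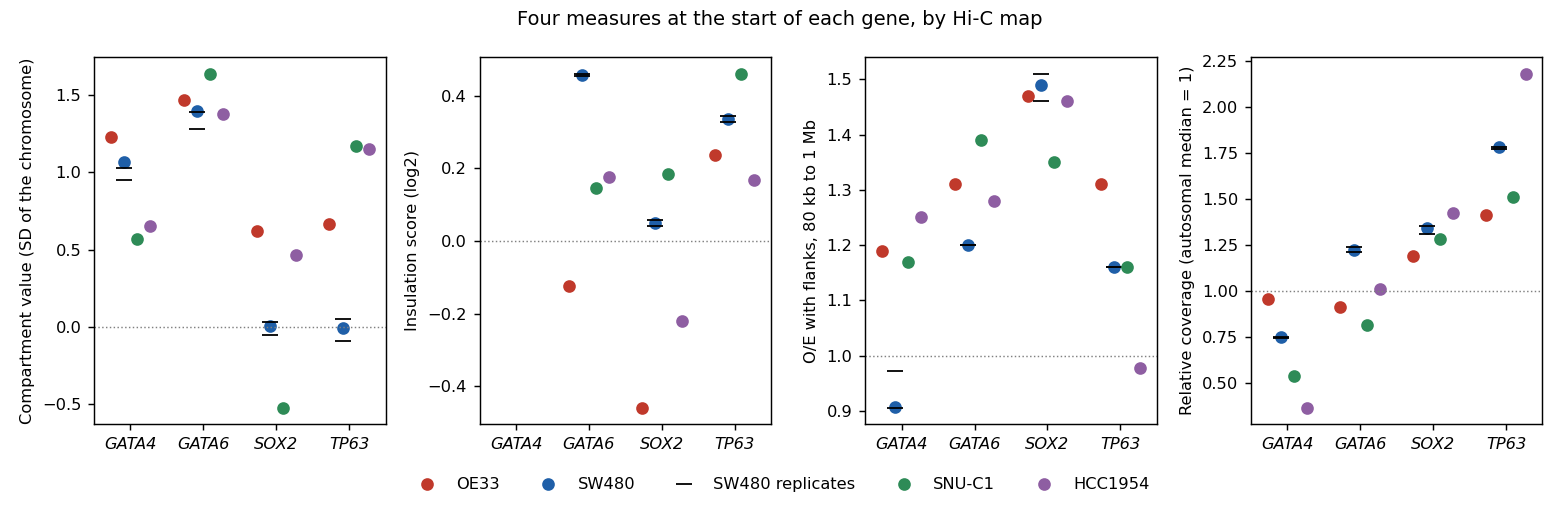
Compartment value, insulation score, O/E with flanks and relative coverage of the 4 genes (y axes) by gene (x axes), with 1 point per cell line and dashes for SW480 replicates 1 and 2. The spread between lines exceeds that between the replicates for most values, and OE33 is the extreme line by a called margin only for the insulation of *GATA6* and *SOX2*.

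Other genes of these programmes were read from 2 lists, 30 foregut and intestinal factors and 27 squamous factors. By compartment value, *SOX21* and *FOXF1* were called higher in OE33 among 28 foregut factors measured, and none was lower. Over all genes the shares in OE33 were 0.938% higher and 1.07% lower. The same list had 2 higher and 2 lower in SNU-C1, 1 and 4 in HCC1954 and 0 of each in SW480. *SOX21*, a relative of *SOX2*, had 0.695 in OE33, 0.116 in SW480, 0.152 in SNU-C1 and -0.59 in HCC1954, and *FOXF1*, a factor of the foregut mesenchyme, had 0.858, 0.0733, 0.14 and 0.345. Both were also called higher for O/E with flanks, at 1.79 and 1.88 in OE33, and *SOX21* had the 1 called contact of the list. By that O/E 2 others of the list were lower, and over all genes 0.594% were higher and 16.3% lower. A contact was called for 1.5% of all genes. Coverage of *SOX21* was 0.427 in OE33 and 1.07 to 1.93 in the others, and it was called lower. The 25 squamous factors measured had 0 calls by compartment value in OE33. The median difference of OE33 from the mean of the other lines was -0.02 for the foregut list, -0.06 for the squamous list, -0.01 for all genes and 0.23 for the 4 members. The last rests on 4 split values. OE33 was the highest line at *GATA4* and *SOX2* but not at *GATA6* or *TP63*.

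By insulation score OE33 was lower at 6 of 27 foregut factors (among them *HNF4A*, *CDX2*, *PDX1* and *HHEX*, factors of liver, pancreas and intestine) and at 3 of 24 squamous factors (among them *PITX1* and *HES1*), and higher at *SOX9*, *TBX3* and *FOXF1*. Both shares of lower scores were below the 28.5% of all genes, of which 2.77% were higher in OE33. The median difference was -0.12 and -0.16 for the lists, -0.17 for all genes and -0.38 for the 3 members scored. O/E with flanks was lower in OE33 for *OVOL2*, a squamous factor. By coverage *ZNF750* was called higher (1.27 against 0.414 to 0.713), and *KLF5* (0.445 against 1.47 to 2.54) and *RUNX1* (0.626 against 1.32 to 1.4) were called lower.

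Likeness of compartment values over the 4 lines was measured as the Euclidean distance to the list genes on other chromosomes, 49 for *GATA4* and 52 for each other member. *TFAP2A*, a factor of surface ectoderm, was 1 of the 2 genes nearest to *SOX2* (distance 0.505). It had 0.804 in OE33, 0.0575 in SW480, -0.159 in SNU-C1 and 0.756 in HCC1954. *GATA6* was nearest to *GRHL2* (0.12) and *GRHL1* (0.224), *GATA4* to *RUNX1* (0.265) and *BARX1* (0.547), and *TP63* to *KLF4* (0.884) and *BARX1* (1.05). *TP63* thus had the most distant nearest gene of the members.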

How the data were processed

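In situ Hi-C with MboI gave 6 maps of 4 lines. Per the methods, the authors mapped reads with BWA-MEM (hg19), discarded duplicates by Picard and corrected matrices iteratively. Tool versions are not given in the sources. The deposited values are a signal, the iteratively corrected contact of each 40-kb bin pair. Read pairs were recovered by fitting a factor to each bin, with 99.94% or more whole within 0.02. Bins whose coverage was below 0.25 of the median in at least 1 line were dropped. The expected contact was the genome-wide mean per distance. Compartment values are eigenvectors of 200-kb correlation matrices, and minima came from a 200-kb slope with a strength of at least 0.1. Genes came from GENCODE lifted to GRCh37.

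The SW480 map without a number pools the replicates and represented the line. Members, lists and rules were chosen with earlier results of these data known. Genes named are the members, neighbours holding a strongest contact or nearest minimum, called list genes and the nearest 2 list genes; neighbours beyond these were chosen after their values were seen. Some list genes are not reported here. Calculations were tested on simulated data. Alternatives included no correction, chromosome-wise expectation, stricter bins, other windows and each SW480 replicate. Matplotlib 3.10.9, Numba 0.67.0, SciPy 1.17.1, NumPy 2.4.6, PyArrow 21.0.0 and pandas 2.3.3 ran under Python 3.11.15.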

Additional observations from a re-analysis of the deposited data

How the results depend on the processing

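Of 39 alternatives to the counts of members called in OE33 and to the contact of *SOX2* with *TP63*, 33 left the value within the limit of 1.5 times or within its interval. The 33 include the contact in OE33 without an SW480 replicate, which uses no SW480 data and so could not move. The count by insulation score, 2 in the maps as corrected, was 0 without iterative correction, 1 with bins under 0.5 of the median coverage left out, 0 with a 480-kb window, 1 when divided by the SD of each line and 0 when centred on the median over genes, an alternative added after the data were seen. It was 2 without either SW480 replicate, but the line nearest to OE33 was SNU-C1 at *GATA6* and HCC1954 at *SOX2*. The SW480 map did not set these margins. The count by O/E with flanks went from 0 to 1 without iterative correction, through *GATA4*. Without correction *GATA6* had a higher insulation score in OE33 than in any other line, by 0.159, in place of a lower one. The cause was not tested. The *SOX2* to *TP63* contact in OE33 ranged from 1.07 with the expectation of its own chromosome to 1.54 without correction. Of 43 alternatives to 6 single calls of a line at a member, 24 kept the call. The 24 include the OE33 calls without an SW480 replicate, whose margins stayed the same because another line was nearest. With the stricter limit on bins *GATA4* was not measured. No paired analysis was possible because separate replicate maps were at hand only for SW480. Depth limits the *SOX2* to *TP63* contact, which rests on 13 to 46 read pairs in 200-kb blocks.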

Other observations

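Beyond the windows, the 1-Mb block in which a line most exceeded the rest was looked up for each member and line, after the data were seen. On chromosome 3, the *SOX2* window of SNU-C1 contacted 59 to 60 Mb at an O/E of 11.4 (500 read pairs), against at most 0.838 in the other lines. The *TP63* window of SW480 contacted 76 to 77 Mb at 2.16 (282 read pairs), against at most 0.598. On chromosome 8, the *GATA4* window of SNU-C1 contacted 131 to 132 Mb at 8.01 (193 read pairs), against at most 2.00. In OE33 the blocks found this way had 1.41 for *GATA4*, 0.766 for *GATA6*, 1.12 for *SOX2* and 1.35 for *TP63*.

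Between chromosomes OE33, SNU-C1 and HCC1954 were compared. The SW480 map held 0.216% of its read pairs there and was left out. Values are relative to the mean of each window's contacts with other chromosomes. The *GATA6* window of HCC1954 contacted 18 to 19 Mb of chromosome 6 at 46.8 (997 read pairs), and that of OE33 contacted 183 to 184 Mb of chromosome 4 at 13.1 (396 read pairs), against at most 0.98 and 0.232 in the other lines. In HCC1954 both *SOX2* (33.3; 661 read pairs) and *TP63* (11.5; 405) contacted 120 to 121 Mb of chromosome 8. In SNU-C1 they contacted chromosome 5, *SOX2* at 161 to 162 Mb (7.23) and *TP63* at 142 to 143 Mb (9.5). Pairs between chromosomes made up 48.5% of the read pairs of the *GATA6* window in OE33 against 36.5% over its autosomes, 26.5% against 19.6% in HCC1954 and 16.9% against 14.8% in SNU-C1. These contacts lie on the same chromosomes as the compartment and insulation values of the members, and their part in those values was not tested.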
